A study of Mus musculus with 4 samples.

Results

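Neuromuscular junction genes code for the postsynaptic apparatus at which a motor nerve meets a muscle fibre. Open chromatin at 10 of them was read from ATAC-seq peaks, places where the Tn5 transposase could cut the DNA, in 4 mouse muscles. The genes were the muscle acetylcholine receptor subunits Chrna1, Chrnb1, Chrnd, Chrne and Chrng, the receptor-clustering genes Musk, Lrp4, Dok7 and Rapsn, and Colq. Peaks were taken as belonging to a gene when the authors' annotation named that gene, which it does by the closest transcription start site (TSS). This gave 62 of 120839 peaks, 15 of 30136 in the extensor digitorum longus (EDL), 18 of 40337 in the quadriceps (Quad), 20 of 28784 in the soleus (Sol) and 9 of 21582 in the diaphragm (Dia). Peaks of different muscles that overlapped were joined, leaving 27 regions of 53883 in the series. Each gene had at least 1 peak in at least 1 muscle, while 33.0% of 21896 protein-coding genes had no peak in any list.

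The muscles came from wild-type, sedentary mice labelled C57BL/6 (male C57BL/6J in the study's methods), and no allele or treatment set the groups apart. EDL and Quad are mostly fast and glycolytic, Sol is slow and oxidative, and Dia is a breathing muscle in constant use. Each muscle was represented by 1 peak list from a library labelled as pooled, which may combine replicates or animals whose number the labels do not give. Figure legends of the study give group sizes for ATAC-seq, but not how each list was pooled. With no separate replicates, the differences below describe these lists, and no test between muscles was possible. Whole muscle was used, in which the synaptic nuclei of the fibre are a small minority, and fewer nuclei of a kind cannot be told apart from less open DNA in each.

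At the junction, the nerve releases acetylcholine onto receptors built from 2 alpha subunits with beta, delta and either the gamma (fetal) or the epsilon (adult) subunit. The nerve also secretes agrin, which binds Lrp4 and thereby activates the kinase Musk, with Dok7 as its activator inside the fibre, and Rapsn anchors the receptors in clusters. Colq is the collagen tail that fastens acetylcholinesterase in the synaptic cleft. Promoters of such genes are known for E-boxes, bound by MyoD-family factors, and for the N-box, bound by the Ets factor GABP. Several of these genes are transcribed mainly by the nuclei beneath the nerve ending.

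The sequences that the results turn on are given first, read 5′ to 3′ along the strand of the gene in the mm10 assembly (GRCm38.p6). Regions are named by their gene and by the distance of the peak from its TSS. Of the first 5, 4 are the highest-scored peaks of regions listed in all muscles and the Chrne peak is the one that stood highest in EDL, and in each the E-box CAGCTG and the N-box CCGGAA are in capitals where they occur. A sequence without capitals holds neither of these exact runs of letters, and other forms of the E-box were not searched. The last 3 are the 250 bases upstream of a RefSeq start, shown because each holds an E-box although none of these genes had a peak at its promoter. The Rapsn promoter peak in Quad, not printed, also holds 1 E-box.
Chrnb1 +0.5 kb (Quad peak, chr11:69795342-69795530, minus strand): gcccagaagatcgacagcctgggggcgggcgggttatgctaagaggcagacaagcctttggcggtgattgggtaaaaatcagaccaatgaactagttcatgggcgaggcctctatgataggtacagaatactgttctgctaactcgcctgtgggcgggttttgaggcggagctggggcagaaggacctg
Chrne -3.0 kb (EDL peak, chr11:70622085-70622293, minus strand): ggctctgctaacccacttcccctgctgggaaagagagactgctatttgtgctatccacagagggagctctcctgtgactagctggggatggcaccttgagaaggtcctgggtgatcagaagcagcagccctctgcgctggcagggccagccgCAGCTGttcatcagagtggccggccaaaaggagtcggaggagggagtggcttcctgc
Musk +50.5 kb (Quad peak, chr4:58336365-58336553, plus strand): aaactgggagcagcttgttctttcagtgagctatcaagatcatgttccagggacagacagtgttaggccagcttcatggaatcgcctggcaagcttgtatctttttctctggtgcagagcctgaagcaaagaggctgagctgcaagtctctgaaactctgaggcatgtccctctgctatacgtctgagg
Dok7 +17.4 kb (Sol peak, chr5:35074064-35074270, plus strand): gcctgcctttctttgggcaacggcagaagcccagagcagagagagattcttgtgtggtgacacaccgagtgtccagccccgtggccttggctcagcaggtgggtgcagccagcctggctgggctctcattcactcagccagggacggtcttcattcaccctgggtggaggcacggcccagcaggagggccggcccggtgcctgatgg
Colq +39.8 kb (EDL peak, chr14:31537477-31537685, minus strand): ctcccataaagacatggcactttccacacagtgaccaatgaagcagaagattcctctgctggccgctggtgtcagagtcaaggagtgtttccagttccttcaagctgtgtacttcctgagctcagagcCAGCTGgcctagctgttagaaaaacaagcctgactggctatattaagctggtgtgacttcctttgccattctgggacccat
Chrna1 upstream (chr2:73580339-73580588, minus strand): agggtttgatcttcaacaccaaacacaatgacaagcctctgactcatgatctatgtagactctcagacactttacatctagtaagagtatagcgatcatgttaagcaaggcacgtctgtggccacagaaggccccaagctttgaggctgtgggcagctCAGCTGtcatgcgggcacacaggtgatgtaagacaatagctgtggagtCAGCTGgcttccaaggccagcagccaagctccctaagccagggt
Chrne upstream (chr11:70619195-70619444, minus strand): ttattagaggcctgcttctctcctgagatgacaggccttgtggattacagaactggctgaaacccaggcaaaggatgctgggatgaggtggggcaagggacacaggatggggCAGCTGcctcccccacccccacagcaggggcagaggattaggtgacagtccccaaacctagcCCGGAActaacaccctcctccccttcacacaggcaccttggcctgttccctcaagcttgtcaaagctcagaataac
Musk upstream (chr4:58285712-58285961, plus strand): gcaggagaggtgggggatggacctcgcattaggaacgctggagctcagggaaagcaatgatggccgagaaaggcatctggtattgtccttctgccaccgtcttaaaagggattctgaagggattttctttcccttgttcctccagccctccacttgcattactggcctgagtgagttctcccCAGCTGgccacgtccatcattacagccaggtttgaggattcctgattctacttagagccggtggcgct

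Promoter peaks were few at these genes. A promoter peak, by the annotation's class around a TSS, was listed for Rapsn in EDL, Quad and Sol and for Dok7 in Quad, and for no gene of the set in Dia. In the order EDL, Quad, Sol and Dia, that is 1, 2, 1 and 0 of 10 genes, against 38.5%, 42.2%, 38.4% and 37.8% of 21896 protein-coding genes. A promoter peak in all 4 lists was found for 30.8% of protein-coding genes and for no gene of this set. Counting peaks within 1 kb on either side of the TSS instead gave 2, 3, 2 and 1 genes, Chrnb1 being the addition in each muscle. Peaks of any class were listed for 7, 8, 8 and 6 of the 10 genes, against 55.9%, 61.5%, 55.6% and 52.3% of protein-coding genes. Peaks in introns numbered 10 of 15 in EDL, 11 of 18 for Quad, 12 of 20 for Sol and 5 of 9 for Dia. The intron share over all peaks was not computed, so these counts only describe where the peaks lay.

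**Figure D1:**
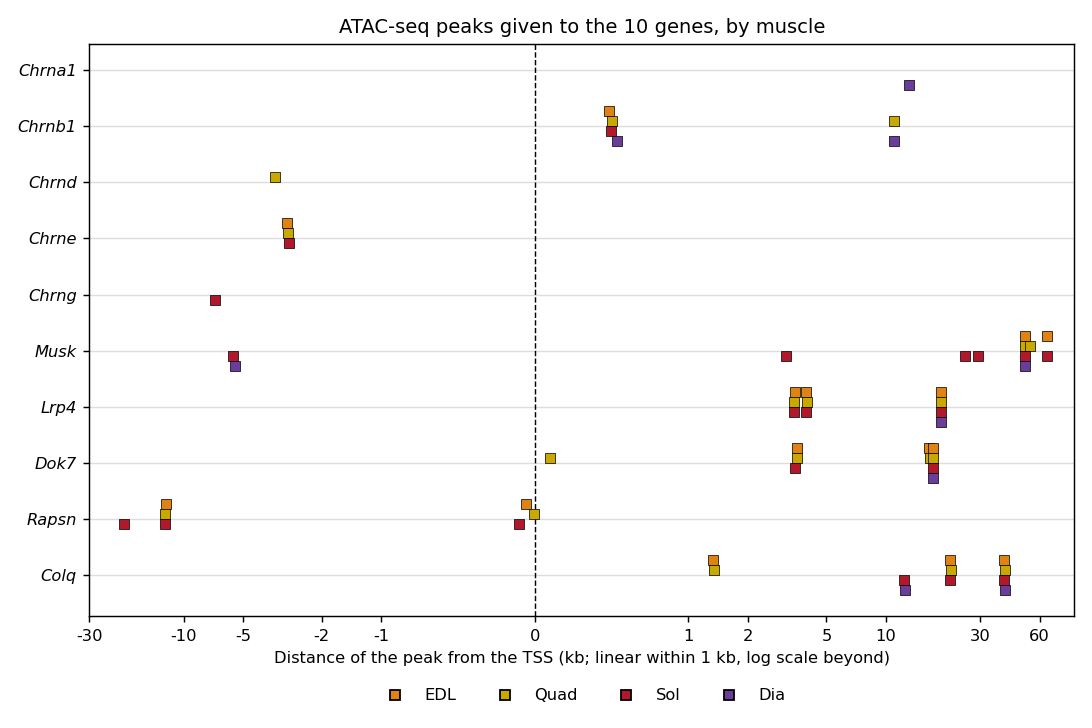
Each square is 1 ATAC-seq peak given to the gene on its row, placed by its distance from the TSS in kb (linear within 1 kb of the TSS, log scale beyond) and coloured by muscle. Squares near the dashed TSS line appear for Rapsn and Dok7, those of Chrnb1 lie about 0.5 kb inside the gene, and the Musk row holds 6 Sol squares against 2 in each other muscle.

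Of the receptor subunits, Chrnb1 (beta) carried the strongest peak of the set. Its region at +0.5 kb lies within an intron of Chrnb1, and the annotation labels it by the transcript end of the neighbouring gene Fgf11. The peak scored 25.6, 26.5, 25.3 and 25.6 in EDL, Quad, Sol and Dia, where the score is the tag count of the peak scaled by library size. These scores stood at percentiles 98.1, 98.2, 98.2 and 98.3 of their lists. Peak width differed between the lists, at 208, 188, 206 and 232 bp in the same order. Scores and score ratios here and below were not corrected for width. In the comparison of EDL with Dia the ratio was 1.0 (95% interval from counting error alone, 0.839 to 1.19), and for Quad with Sol it was 1.05 (0.868 to 1.26), and the intervals of all 6 pairs held equal scores. A second Chrnb1 region, at +11.0 kb over coding sequence of the gene (chr11:69784820-69785064), scored 4.48 in Quad and 5.84 in Dia and was not listed in EDL or Sol. The annotation labels it by the transcript end of Zbtb4, the next gene.

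Chrne, the adult epsilon subunit, had 1 region, intergenic and 3.0 kb upstream of its TSS. Its score was 10.1 in EDL, 6.02 in Quad and 6.31 in Sol, and no peak was listed in Dia. EDL was thus the highest, 1.68-fold above Quad (1.18 to 2.42) and 1.60-fold above Sol (1.17 to 2.21), while the interval of Quad over Sol, 0.642 to 1.41, held equal scores. The EDL peak printed above holds 1 E-box of the form CAGCTG. At the far end of the gene a peak given to the neighbour 4930544D05Rik lies inside Chrne in EDL, Quad and Dia, with scores of 5.77, 6.15 and 5.24.

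The other subunits had 1 peak each. Chrna1 (alpha) had an intronic peak in Dia with a score of 4.13, at percentile 1.53 of that list. Upstream of it, a peak given to the gene Chrna1os lay at -4434, -4439 and -4423 bp from the Chrna1 start in EDL, Quad and Dia, with scores of 4.52, 6.53 and 6.35. Chrnd (delta) had a peak at -3.5 kb in Quad with a score of 5.12, at percentile 30.2, which lies within the neighbouring gene Prss56. Chrng (gamma, fetal) had a peak at -6.9 kb in Sol with a score of 4.59, at percentile 16.1, which falls in the 3′ UTR of Chrnd.

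Musk, the receptor kinase, had 6 peaks in Sol and 2 in each of EDL, Quad and Dia. The excess of 4 peaks over every other list was reached by 9 of 21896 protein-coding genes, 0.0411%, Musk included. That count was looked up after the Musk values had been seen. It rests on low-ranked peaks: among the 20000 highest-scored peaks per list Musk had 2 in Sol, 1 in Quad, 1 in Dia and 0 in EDL, and in the upper 50% of each list it had 1 in Quad and 0 elsewhere. The region at +50.5 kb, in an intron, was listed in all 4 muscles with scores of 4.81, 8.2, 5.07 and 4.23 in EDL, Quad, Sol and Dia. Quad was the highest there, 1.94-fold above Dia (1.29 to 2.93) and 1.62-fold above Sol (1.11 to 2.37). Centred on the median of all regions a pair shared, the log2 ratio of Quad over Dia fell from 0.955 to 0.761. That of Quad over Sol fell from 0.694 to 0.558. Sol alone had peaks at +3.1, +25.1 and +29.4 kb, with scores of 5.83, 4.87 and 4.59, at percentiles 34.6, 20.5 and 16.1. At -5.5 kb a peak was listed in Sol (5.73) and Dia (4.53), and at +65.4 kb in EDL (5.48) and Sol (4.78). Quad had a peak of its own at +53.5 kb, with a score of 5.38. Apart from the intergenic one, the Musk regions lie in introns. The peak nearest to a Musk TSS was 50362 bp away in EDL and 50403 bp in Quad, against 3002 bp in Sol and 5366 bp in Dia.

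Lrp4, the agrin receptor, had 3 regions. Those in its first intron at +3.4 and +4.0 kb were listed in EDL, Quad and Sol and not in Dia. At +3.4 kb the score was 7.79 in EDL, 7.17 in Quad and 10.9 in Sol, and Sol exceeded Quad with a Quad-to-Sol ratio of 0.658 (0.469 to 0.914). At +4.0 kb the values were 8.18, 7.94 and 10.4, again highest in Sol, but the interval of Quad over Sol, 0.549 to 1.05, held equal scores. The region at +19.1 kb (chr2:91476500-91476738) covers coding exon sequence and was listed in all 4 muscles at 6.25, 6.28, 7.26 and 6.95, values that lay within each other's counting intervals.

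Dok7, the activator of Musk, showed its highest signal in an intron at +17.4 kb. EDL scored 8.47 there, Quad 10.8, Sol 11.8 and Dia 6.75. Dia was the lowest, with Sol 1.75-fold above it (1.28 to 2.38) and Quad 1.6-fold above it (1.14 to 2.23), while the interval of EDL over Dia, 0.903 to 1.75, held equal scores. Centred on the median of all regions a pair shared, the log2 ratio of Sol over Dia fell from 0.806 to 0.746. That of Quad over Dia fell from 0.678 to 0.484. The region at +16.6 kb was listed in EDL (8.47) and Quad (9.35) alone, and the one at +3.5 kb in the hindlimb muscles at 7.89, 8.84 and 9.08. The promoter peak (chr5:35056771-35056959) covers a Dok7 transcript start and scored 7.3 in Quad, at percentile 56.8. A further Quad peak inside Dok7 was given to the neighbour Lrpap1, with a score of 9.48. In EDL another peak given to Lrpap1 overlapped the end of Dok7, with a score of 5.2.

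Rapsn, the clustering protein, had no peak in Dia. At its promoter (chr2:91035424-91035717) the score was 9.14 in EDL, 9.35 in Quad and 8.89 in Sol, so the 3 hindlimb muscles lay within counting error of each other. In Dia the nearest peak to a Rapsn TSS was 18267 bp away and belonged to Psmc3. A weaker region at -12.4 kb was again shared by the hindlimb muscles, at 5.39, 5.25 and 5.93, and a Sol peak at -20.0 kb with a score of 4.59 lies in the 3′ UTR of Celf1.

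Colq, the acetylcholinesterase tail, had 4 intronic regions. At +39.8 kb EDL scored 11.3, Quad 9.73, Sol 7.55 and Dia 5.84, with EDL 1.93-fold above Dia (1.39 to 2.69). At +21.2 kb Sol was the highest at 11.7, against 7.41 in EDL and 8.07 in Quad, and no peak was listed in Dia. The remaining regions divided the muscles. The one at +1.3 kb was listed in EDL (7.99) and Quad (8.84), and the one at +12.4 kb in Sol (5.73) and Dia (5.84).

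**Figure D2:**
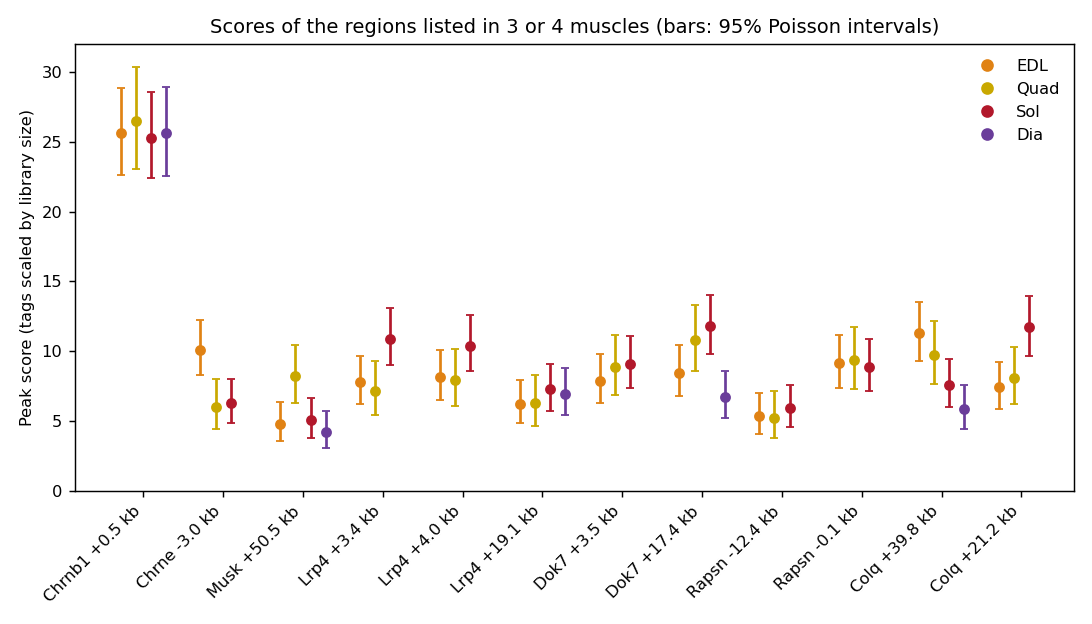
Peak score (tags scaled by library size, linear axis from 0) at each region listed in 3 or 4 muscles, coloured by muscle, with bars for 95% Poisson intervals that cover counting error alone. The Chrnb1 points sit between 25.3 and 26.5 and every other region lies at 11.8 or lower.

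Sharing between muscles was uneven. Of the 27 regions, 5 were listed in all 4 muscles, 18.5% (95% Wilson interval 8.18 to 36.7), against 26.9% of all regions in the series. These were Chrnb1 at +0.5 kb, Musk at +50.5 kb, Lrp4 at +19.1 kb, Dok7 at +17.4 kb and Colq at +39.8 kb. None is a promoter region, and 5 of 25 non-promoter regions is 20.0%, against 16.0% in the series. A further 7 regions, 25.9% (13.2 to 44.7), were listed in EDL, Quad and Sol but not in Dia, a pattern held by 8.09% of all regions. That share covers promoter and non-promoter regions together. The 7 regions belong to Chrne, Lrp4, Dok7, Rapsn and Colq, and their hindlimb scores ran from 5.25 to 11.7. The Dia list was also the shortest, and the part of its length was not tested. EDL and Quad alone held 2 regions, a pattern of 8.05% of all regions, and Sol and Dia alone held 2, a pattern of 1.2%. Regions of 1 muscle numbered 9, or 33.3%, against 42.6% in the series.

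Pairs of muscles were compared in the same way, and the Wilson interval of every pair held the series value. EDL and Quad shared 14 of their 19 regions, 73.7% (51.2 to 88.2), against 52.8% in the series. EDL and Sol shared 59.1% of 22 regions, against 53.7%, and Quad and Sol 46.2% of 26, against 46.0%. The pairs with Dia were lower, at 26.3% with EDL, 28.6% with Quad and 31.8% with Sol, against 47.6%, 39.2% and 49.4% in the series. The Wilson interval for EDL and Dia, 11.8 to 48.8, still held the series value. Peaks found in no other list numbered 0 of 15, 3 of 18, 5 of 20 and 1 of 9 (EDL, Quad, Sol, Dia), against 12.0%, 30.3%, 16.1% and 11.5% of all peaks.

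**Figure D3:**
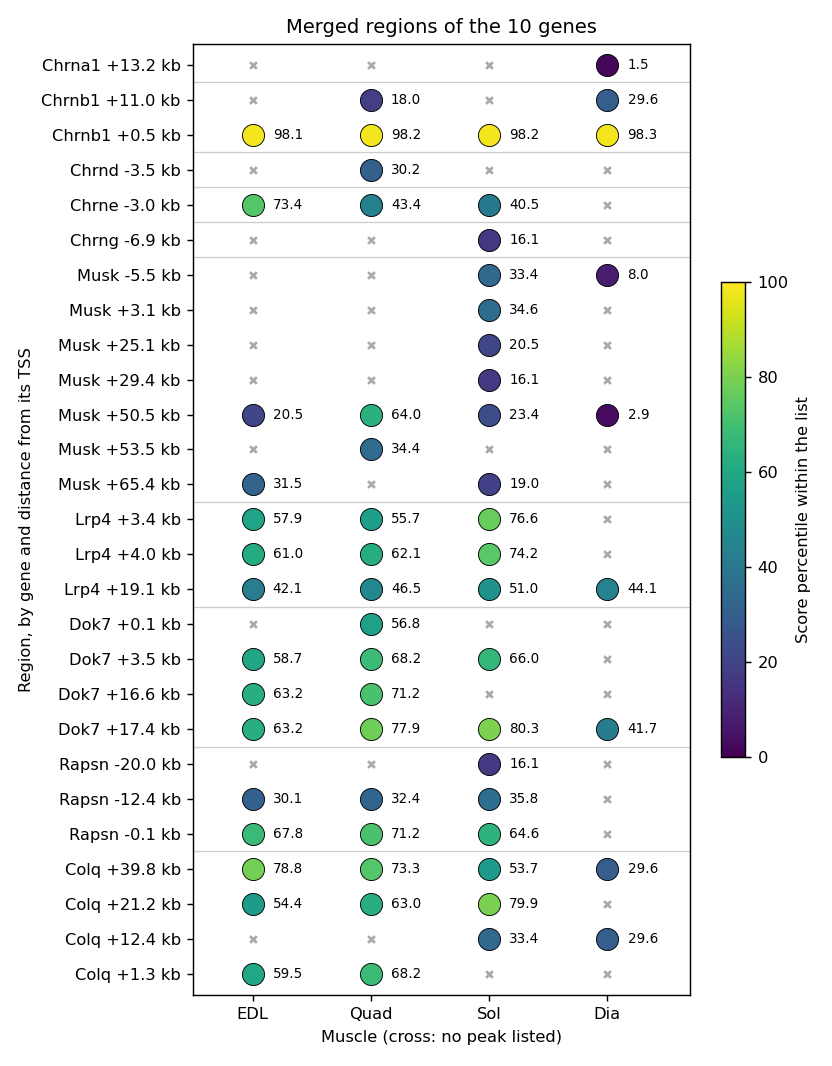
Rows are the 27 merged regions and columns the 4 muscles. A filled circle is a listed peak, coloured and labelled by its score percentile within that list, and a cross means that no peak was listed. Circles fill all 4 columns in 5 rows, and the Dia column has the most crosses.

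Ranks within the lists differed as well. The median percentile of the peaks was 59.5, 62.5, 38.1 and 29.6 (EDL, Quad, Sol, Dia), counting promoter peaks. Without them it was 59.1, 62.5, 35.8 and 29.6, against 38.3, 40.0, 38.2 and 34.1 for all non-promoter peaks of the lists. In EDL 11 of 15 peaks ranked above percentile 50 of their list, in Quad 12 of 18, in Sol 9 of 20 and in Dia 1 of 9. The share of all peaks above that mark was 49.8% for EDL, Quad and Dia and 49.5% for Sol. The Dia peak above it was that of Chrnb1.

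**Figure D4:**
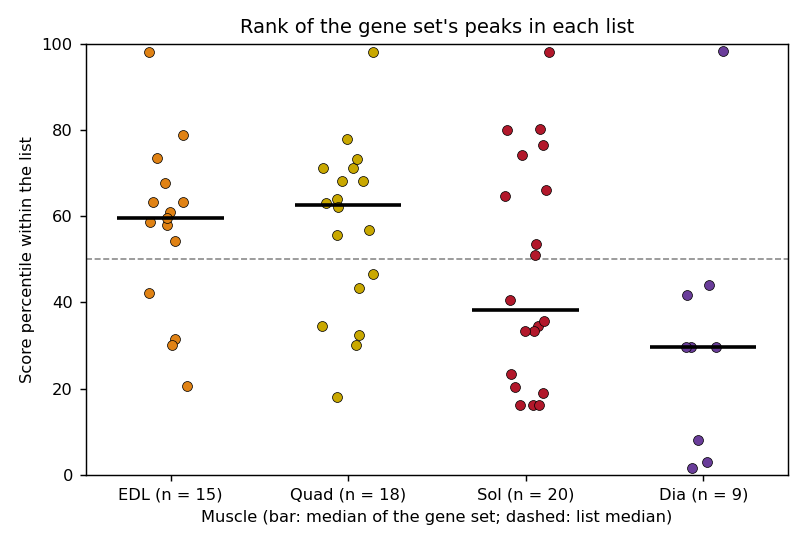
Each point is 1 peak of the 10 genes at its score percentile within its muscle's list, with a bar for the median of these peaks and a dashed line at percentile 50. Most EDL and Quad points lie above the line, and in Dia 1 point does, at 98.3.

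Score differences past 1.5-fold at shared regions were counted for each pair. Of the regions shared by EDL and Quad, 2 of 14 were that far apart, against 10.5% of all shared regions. The counts were 2 of 13 for EDL and Sol (series 8.51%), 1 of 5 for EDL and Dia (11.1%), 2 of 12 for Quad and Sol (11.9%), 3 of 6 for Quad and Dia (14.4%) and 1 of 7 for Sol and Dia (9.55%). Scores in Quad ran higher than in Dia over all their shared regions, by a median of 0.19 on the log2 scale.

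The regions were then searched for motifs. The E-box form CAGCTG occurred in 7 of 25 non-promoter regions of these genes, against 22.5% of all non-promoter regions. Of their 2 promoter regions, that of Rapsn held it and that of Dok7 did not, against 12.0% of all promoter regions. The N-box occurred in 0 of 2 promoter regions, against 23.3%, and in 2 of 25 non-promoter regions, against 4.55%. Those were Chrnd -3.5 kb, which overlaps coding sequence of Prss56, and Chrng -6.9 kb, in the 3′ UTR of Chrnd. Both motifs were searched on both strands, and nowhere in the printed sequences do they overlap. Mean GC content was 52.8% over the 25 regions and 51.6% over all non-promoter regions. RefSeq promoter sequences were matched for 6 of the 10 genes, all but Chrnd, Lrp4, Rapsn and Colq. Neither CAGCTG nor CCGGAA was found in those of Chrnb1 or Dok7, and other forms of the E-box were not searched. The E-box was found upstream of Chrng at -155 and -132, of Chrna1 at -92 and -44, of Chrne at -138 and of Musk at -68, and the N-box upstream of Chrne at -76, counted from the start. Over 32851 promoters in that table, 13.0% held the E-box and 12.0% the N-box in the same 250 bases. A match is a run of letters and does not show binding.

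At 18 other junction genes, EDL listed 33 of its 30136 peaks, Quad 55 of 40337, Sol 34 of 28784 and Dia 22 of 21582. Promoter peaks were listed for 7, 10, 8 and 6 of these genes in the same order. The shares over all protein-coding genes were 38.5%, 42.2%, 38.4% and 37.8%. In every list a promoter peak was found for 6 of these genes, against 30.8% of protein-coding genes. Among the 6 were Agrn, which codes for agrin, and Erbb2, a neuregulin receptor subunit. Utrn, the utrophin gene, had 10, 16, 11 and 8 peaks in EDL, Quad, Sol and Dia. Ncam1, an adhesion molecule, had 2, 8, 5 and 1. Scn4a, the muscle sodium channel, had 4, 4, 2 and 0, and Lama5, a synaptic laminin, had 2, 5, 2 and 1. The next largest difference between lists, 2 peaks, was shared by 4 genes. Ache, acetylcholinesterase, had 2, 3, 1 and 1 peaks, Lamb2, another synaptic laminin, 1, 2, 1 and 0, and Nes, the nestin gene, 3, 4, 4 and 2. Erbb4, a neuregulin receptor, had 1, 1, 1 and 3 and was highest in Dia. Nrg1 and Gabpa had none by name, but the Gabpa start lay under a peak given to Atp5j in all 4 lists.

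Markers of other cells were read in the same way. Of 6 muscle fibre genes, promoter peaks were listed for 6 in EDL and 5 in each other muscle. For the Schwann cell genes Sox10, Mbp and S100b no promoter peak was listed in any muscle, and Sox10 had no peak at all. Of 4 endothelial genes, promoter peaks were listed for 3, 4, 3 and 1 (EDL, Quad, Sol, Dia). Dcn was the 1 gene of 4 fibro-adipogenic genes with a promoter peak, in Sol, and no promoter peak was listed for 4 leukocyte or 3 satellite cell genes. Counting peaks of any class in the order EDL, Quad, Sol and Dia, the muscle fibre genes had 22, 22, 20 and 17, and the endothelial genes 26, 28, 27 and 16. The fibro-adipogenic genes had 9, 12, 5 and 1, the leukocyte genes 2, 3, 1 and 0, and the satellite cell genes 2, 6, 3 and 1. Those 5 lists were lowest in Dia, as were the peaks of the junction genes, but the Dia list was also the shortest. It held 21582 peaks, against 30136, 40337 and 28784 in EDL, Quad and Sol. Peaks per gene over the 10 genes averaged 1.5, 1.8, 2.0 and 0.9 in EDL, Quad, Sol and Dia. Over all protein-coding genes they averaged 1.19, 1.57, 1.14 and 0.869. The part of list length and of these cell types in the results above was not tested.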

How the data were processed

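The authors pulverised frozen muscle, transposed nuclei, sequenced paired-end reads, aligned them to mm10 with Bowtie2 at its default settings and called fixed-width peaks with HOMER in each library, keeping 1 tag per start position. The deposited peak score is a tag count scaled by library size. Handling of the Tn5 offset and of mitochondrial reads is not given in the sources used here. The deposited start, end and distance to the TSS were used as given, with peak widths of 208, 188, 206 and 232 bp (EDL, Quad, Sol, Dia).

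Below a score of 10, scores were whole multiples of the worth of 1 tag (tolerance 0.0051). If scores are scaled to 10 M tags, depth in the same order was 104, 78.1, 105 and 99.3 M, and the lowest peak held 34, 25, 32 and 36 tags. An unlisted peak may lie below that limit. Percentiles were ranks within a list, peaks overlapping by 1 bp were merged, shares carry 95% Wilson intervals, and scores carry Poisson intervals. Score ratios carry exact binomial intervals and were not corrected for peak width. All intervals cover counting error only.

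Gene models were those of GENCODE vM21, and sequence was read from RefSeq's GRCm38.p6. Merging, ranking and tag inference were tested on simulated data. Python 3.11.15, pandas 2.3.3, scipy 1.17.1 and pysam 0.24.0 were used. Alternatives were stricter peak lists, other overlap and distance limits, ranks within a peak class, centred ratios and a fixed motif window. All 10 genes are named, along with other junction genes whose peak number differed most between lists or that had no peak. The members and lists were chosen with earlier results of these data known. Some marker genes are not reported here.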

Additional observations from a re-analysis of the deposited data

How the results depend on the processing

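No paired analysis was possible because each muscle had 1 library, so leaving out a replicate could not be done either. Of 78 values recomputed under alternative settings, 63 kept within 1.5 times the count or, for shares, within the Wilson interval. Those intervals rest on 19 to 27 regions and are wide, so a share kept within them is a weak check. Some counts could not have moved. Lists cut at a common lowest score of 3.63 kept every peak of these genes, the lowest being 4.13 in Dia. The 0 promoter genes of Dia could not rise in a shortened list. For median percentiles the interval was computed from the length of the whole list, and the medians of every muscle moved out of it. In the upper 50% of each list the peaks numbered 9 in Sol and 1 in Dia, and 7.14% of regions were listed in all 4 muscles. Counting any peak within 10 kb of the gene body gave 14 in Dia. With promoters taken as 1 kb on either side of the TSS, 2 genes had a promoter peak in EDL, 2 had one for Sol and 1 for Dia. At 50% reciprocal overlap, 1 EDL peak and 3 Dia peaks were in no other list, and with 20000 peaks per list 2 Sol peaks were. Ranked within promoter or non-promoter peaks, the median percentiles were 71.8, 71.4, 46.4 and 44.5 (EDL, Quad, Sol, Dia). Centring on the median of all shared regions left 1 region of Quad and Dia past 1.5-fold. The upper 50% and the lists of 20000 peaks drop peaks by construction, and the cause of the other changes was not tested. The excess of Musk peaks in Sol over the highest other list, 4 peaks as deposited, was 1 with 20000 peaks per list and -1 in the upper 50%, settings chosen for this count after seeing the data. Peaks under the lowest tag count of a list, 36 in Dia and 25 in Quad, could not be listed.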

Other observations

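The Chrnb1 region at +0.5 kb holds the letters CCAAT 2 times when both strands are read, a motif looked for after its sequence had been seen. At least 2 copies occurred in 3.48% of 42117 non-promoter regions and in 12.1% of 11740 promoter regions. No other region of the 10 genes held 2 copies.

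Genes whose promoter percentiles over the 4 lists were nearest to those of Rapsn were Dysf, Mlx and 2610507I01Rik, at distances of 3.05, 3.86 and 5.85 percentile points over the 4 muscles. Dysf, which codes for the membrane repair protein dysferlin, stood at percentile 70.7 in EDL, 71.2 in Quad and 63.9 in Sol, with no promoter peak in Dia. Dok7 shared its percentile of 56.8 in Quad and its absence elsewhere with 2700081O15Rik, Cds1 and Myo5c.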
